A study of Mus musculus with 6 samples.

Results

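The vascular endothelial growth factor (VEGF) ligands and receptors were followed as 9 genes of the 31053 in the count matrices. They are a list of names, set with earlier results of these data known: the ligands Vegfa, Vegfb, Vegfc and Pgf, the receptor tyrosine kinases Flt1, Kdr and Flt4, and the co-receptors Nrp1 and Nrp2. The study profiled mouse lung cells in 6 droplet libraries with 3′ tags, in which each RNA molecule caught is counted once by its unique molecular identifier (UMI). For 4 libraries, cells carrying the reporter were sorted from Cxcl12DsRed/+ lungs of embryonic day (E) 13.5, E15.5 and E18.5 and of postnatal day (P) 8, with selection for CD31 and against CD45 and EpCAM. The other 2 libraries came from unsorted whole lungs at E18.5, labelled Cxcl12DsRed/+ control and Cxcl12DsRed/DsRed null. All animals therefore carried at least 1 allele with DsRed at the Cxcl12 locus, a reporter that marks cells using the Cxcl12 promoter. Cells from several lungs were mixed for each time point of the sort, and reporter cells without CD31 were also collected. Each condition has 1 library, so no difference between conditions was tested and no p-value is given.

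VEGF ligands are secreted proteins that bind receptor tyrosine kinases on endothelial cells (ECs) and drive vessel growth, permeability and survival. Vegfa acts mainly through Kdr (VEGFR2), Vegfb and Pgf bind Flt1 (VEGFR1), which also serves as a trap for Vegfa, and Vegfc acts through Flt4 (VEGFR3), the receptor needed by lymphatic vessels. The neuropilins Nrp1 and Nrp2 hold ligands at the cell surface together with these receptors. In the lung, alveolar epithelium is a known source of Vegfa, and the wide Car4-positive capillary cells called aerocytes depend on it.

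The question put to the data was where each of these genes was read in the developing lung. ECs were cells with at least 2 UMIs of Pecam1 and Cdh5 together, genes of the endothelial junction. They were split by at least 2 UMIs of Gja4, an arterial connexin, of Gpihbp1, which carries lipoprotein lipase across capillary cells, or of Car4, the carbonic anhydrase of aerocytes. Cells with at least 1 Epcam UMI were called epithelial, those with at least 5 UMIs of Col1a1 and Col3a1 together mesenchymal, and those with at least 1 Ptprc UMI immune. A level is the summed UMIs of a gene in a group of cells scaled to the total UMIs of that group (CPM, the usual depth-scaled count), with an exact 95% Poisson interval. Intervals cover counting error only and say nothing of the spread between lungs. Groups under 50 cells were not used. A gene was called past the fold where its ratio was at least 1.5 in either direction, among genes with at least 20 CPM in 1 of the 2 groups compared and without the genes used as gates. Log2 ratios are of CPM after adding 0.5, and their exact binomial intervals are taken from the counts alone.

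The libraries held 63746333 to 117522172 UMIs, and 7448 to 12726 cells were kept in each. ECs numbered 210 in the sorted E13.5 library, 9453 in E15.5, 9119 in E18.5 and 8259 in P8, with 3019 in the whole lung labelled null and 1923 in that labelled control. The E13.5 library therefore goes against its description as sorted endothelium, with 11303 of its 12726 cells in the mesenchymal gate, and its EC values rest on few cells, of which 37 also passed the mesenchymal gate. All 8 endothelial markers were detected in the ECs of every library, at a summed 4776 to 11402 CPM in the sorted ones. No doublet caller was run, and 759 and 637 cells of the whole lungs labelled null and control passed more than 1 class gate. Class levels of at least 20 CPM that moved by over 1.5 times among cells of a single gate are therefore given also for those cells. Lower levels were not screened in this way. The whole lungs shared 140 cell barcodes (1.58% of the smaller library) and the other pairs 20 to 54. Leaving shared barcodes out moved 1 of the 243 values compared beyond its counting interval. Cxcl12, the gene disrupted by the knock-in, contradicted the whole-lung labels: ECs of the library labelled null read 496 CPM (489 to 504), and ECs of that labelled control 4.23 CPM (3.38 to 5.24). The names under which the files were deposited also give these libraries the opposite genotypes to the labels. In ECs that passed the Gja4 gate and no other split, Cxcl12 read 2466 CPM in the sorted E18.5 library, from Cxcl12DsRed/+ lungs. The same cells read 1902 CPM in the library labelled null and 33.1 CPM in that labelled control. Counts and file names thus both go against the labels, and a swap was not tested beyond these values. The libraries are named below by their labels, and ratios between them change sign if the labels are swapped.

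The windows around the first start site of 4 genes are shown because the 3 receptor kinases had their highest level of the cell classes in ECs and Vegfa in epithelial cells. Each is 300 bases of RefSeq on GRCm38.p6, from 250 bases before to 50 after the start, written along the gene. Capitals mark GGAA or its complement TTCC, the core letters bound by ETS factors, the family that includes the endothelial regulators Erg and Fli1. The Kdr window is chr5:75978406-75978705, the Flt1 window chr5:147725962-147726261, both on the minus strand, the Flt4 window chr11:49609429-49609728 on the plus strand and the Vegfa window chr17:46032328-46032627 on the minus strand.
Kdr: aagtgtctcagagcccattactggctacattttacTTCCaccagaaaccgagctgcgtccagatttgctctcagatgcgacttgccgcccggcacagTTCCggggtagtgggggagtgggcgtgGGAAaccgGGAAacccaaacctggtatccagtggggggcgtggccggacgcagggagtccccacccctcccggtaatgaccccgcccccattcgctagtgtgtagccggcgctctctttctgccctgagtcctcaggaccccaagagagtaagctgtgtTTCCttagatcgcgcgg
Flt1: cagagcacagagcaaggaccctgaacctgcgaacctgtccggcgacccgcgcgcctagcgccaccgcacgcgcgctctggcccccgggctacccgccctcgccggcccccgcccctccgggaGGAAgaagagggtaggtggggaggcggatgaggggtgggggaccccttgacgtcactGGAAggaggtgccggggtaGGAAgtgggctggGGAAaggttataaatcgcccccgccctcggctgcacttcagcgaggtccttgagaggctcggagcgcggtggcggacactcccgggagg
Flt4: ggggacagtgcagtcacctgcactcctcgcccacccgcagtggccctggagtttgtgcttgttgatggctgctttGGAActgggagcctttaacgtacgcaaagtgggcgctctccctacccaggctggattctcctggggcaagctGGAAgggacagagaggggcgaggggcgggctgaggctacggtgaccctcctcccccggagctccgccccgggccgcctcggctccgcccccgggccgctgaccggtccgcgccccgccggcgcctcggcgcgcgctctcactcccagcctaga
Vegfa: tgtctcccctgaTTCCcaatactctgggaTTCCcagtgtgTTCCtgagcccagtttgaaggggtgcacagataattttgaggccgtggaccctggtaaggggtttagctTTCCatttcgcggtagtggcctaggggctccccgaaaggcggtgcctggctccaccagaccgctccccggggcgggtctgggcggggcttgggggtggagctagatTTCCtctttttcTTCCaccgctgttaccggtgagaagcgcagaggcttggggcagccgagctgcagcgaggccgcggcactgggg
The core was found 5 times in the Kdr window, 4 times in Flt1, 2 times in Flt4 and 6 times in Vegfa. It occurs in 96.0% of 32851 promoter windows, with a median of 3, so its presence does not set these genes apart. The hypoxia factor core ACGTG, or CACGT on the other strand, occurs in 19.6% of the windows and in none of these 4. A second Vegfa start site listed by RefSeq, chr17:46025114-46025413, holds 1 such match. All 9 genes had an entry. In GENCODE M21 on GRCm38 the ligand genes are Vegfa at chr17:46016993-46032369 (minus strand), Vegfb at chr19:6982473-6987651 (minus strand), Vegfc at chr8:54077606-54187096 (plus strand) and Pgf at chr12:85166635-85177790 (minus strand). The receptor and co-receptor genes are Flt1 at chr5:147561604-147726011 (minus strand), Kdr at chr5:75932827-75978458 (minus strand), Flt4 at chr11:49609263-49652739 (plus strand), Nrp1 at chr8:128358604-128503363 (plus strand) and Nrp2 at chr1:62703285-62818695 (plus strand). No 60-base stretch of the last 300 bases of their transcripts occurred in another gene of GENCODE M21, where most 3′ tags fall. Nrp1 overlaps Mir1903 on its strand, and Nrp2 overlaps Gm37121 on its strand and Gm29083 on the other.

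Among the ligands in sorted ECs, Vegfa was low before birth and highest at P8, while Vegfc was highest at E13.5 and lowest at P8. Vegfa, the main ligand of Kdr, read 32.7 CPM (24.9 to 42.2) at E13.5, 28.1 CPM (27.1 to 29.2) at E15.5, 52.6 CPM (50.8 to 54.4) at E18.5 and 206 CPM (203 to 210.1) at P8. The intervals of E13.5 and E15.5 overlapped, and P8 stood apart from all earlier libraries, with a log2 ratio over E18.5 of 1.96 (interval 1.92 to 2.03). Vegfc, the ligand of Flt4, read 131 CPM (115 to 149), 103 CPM (101 to 105), 68.8 CPM (66.7 to 71.0) and 29.4 CPM (28.0 to 30.7) in the same order. No 2 of these intervals overlapped, and the log2 ratio of P8 over E18.5 was -1.22 (interval -1.31 to -1.15). In ECs of the Gja4 gate alone, however, Vegfc read 150 CPM (131 to 170) at E13.5 and 152 CPM (149 to 156) at E15.5, so the first step was absent there. Vegfb, a ligand of Flt1, stayed within a narrower range, at 34.4, 23.1, 26.2 and 20.2 CPM. Its E13.5 level was 25.7 CPM (17.5 to 36.2) in ECs of a single class gate. In ECs of the Gja4 gate alone, Vegfb read 36.8 CPM (27.9 to 47.7) at E13.5 and 17.5 CPM (16.3 to 18.6) at E15.5. Pgf, which also binds Flt1, read 12.2, 4.17, 3.18 and 0.794 CPM, always under the 20 CPM needed for a call. Among E13.5 ECs of a single class gate Pgf read 6.41 CPM (2.77 to 12.6), from 8 UMIs, an interval that covers its E15.5 level.

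Of the receptors, Flt1 and Kdr were higher at the later ages, and Flt4 and Nrp1 were highest at E18.5. Kdr, the main signalling receptor for Vegfa, read 235 CPM (213 to 258) at E13.5, 297 CPM (294 to 301) at E15.5, 411 CPM (406 to 417) at E18.5 and 476 CPM (470.1 to 481) at P8. Each step stayed under the 1.5-fold limit, but P8 over E13.5 gave a log2 ratio of 1.02 (interval 0.88 to 1.16). From E15.5 on, Kdr in ECs of the Gja4 gate alone fell with age instead, as given below. Flt1, the decoy for Vegfa, read 218, 212, 320.3 and 382 CPM. The first pair had overlapping intervals, and the step from E15.5 to E18.5 passed the fold at 0.60 (interval 0.57 to 0.63). Flt4 read 17.8 CPM (12.1 to 25.1), 18.1 CPM (17.3 to 19.0), 39.2 CPM (37.7 to 40.9) and 22.9 CPM (21.8 to 24.2), so that E18.5 was high and the other libraries low. Without the ECs that had at least 2 UMIs of Prox1, a gene of lymphatic cells described below, Flt4 read 14.04, 17.4, 32.7 and 22.7 CPM. Nrp1, the neuropilin of arteries, read 443, 279, 589 and 405 CPM, lowest at E15.5. Nrp2, the neuropilin of veins and lymphatics, read 33.9 CPM (25.9 to 43.5), 30.8 CPM (29.7 to 31.9), 45.6 CPM (43.9 to 47.4) and 10.00 CPM (9.22 to 10.8), lowest at P8. Its higher level at E18.5 came with 80 Prox1 ECs there, against 1, 45 and 9 at E13.5, E15.5 and P8. Without them Nrp2 read 17.4, 28.0, 30.4 and 9.12 CPM, so that P8 stayed low, E15.5 and E18.5 were close, and the E13.5 level without its single such cell was under those. Over all ECs the E13.5 level was 20.8 CPM as a mean of per-cell values and 15.99 CPM with gates on thinned cells.

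**Figure D1:**
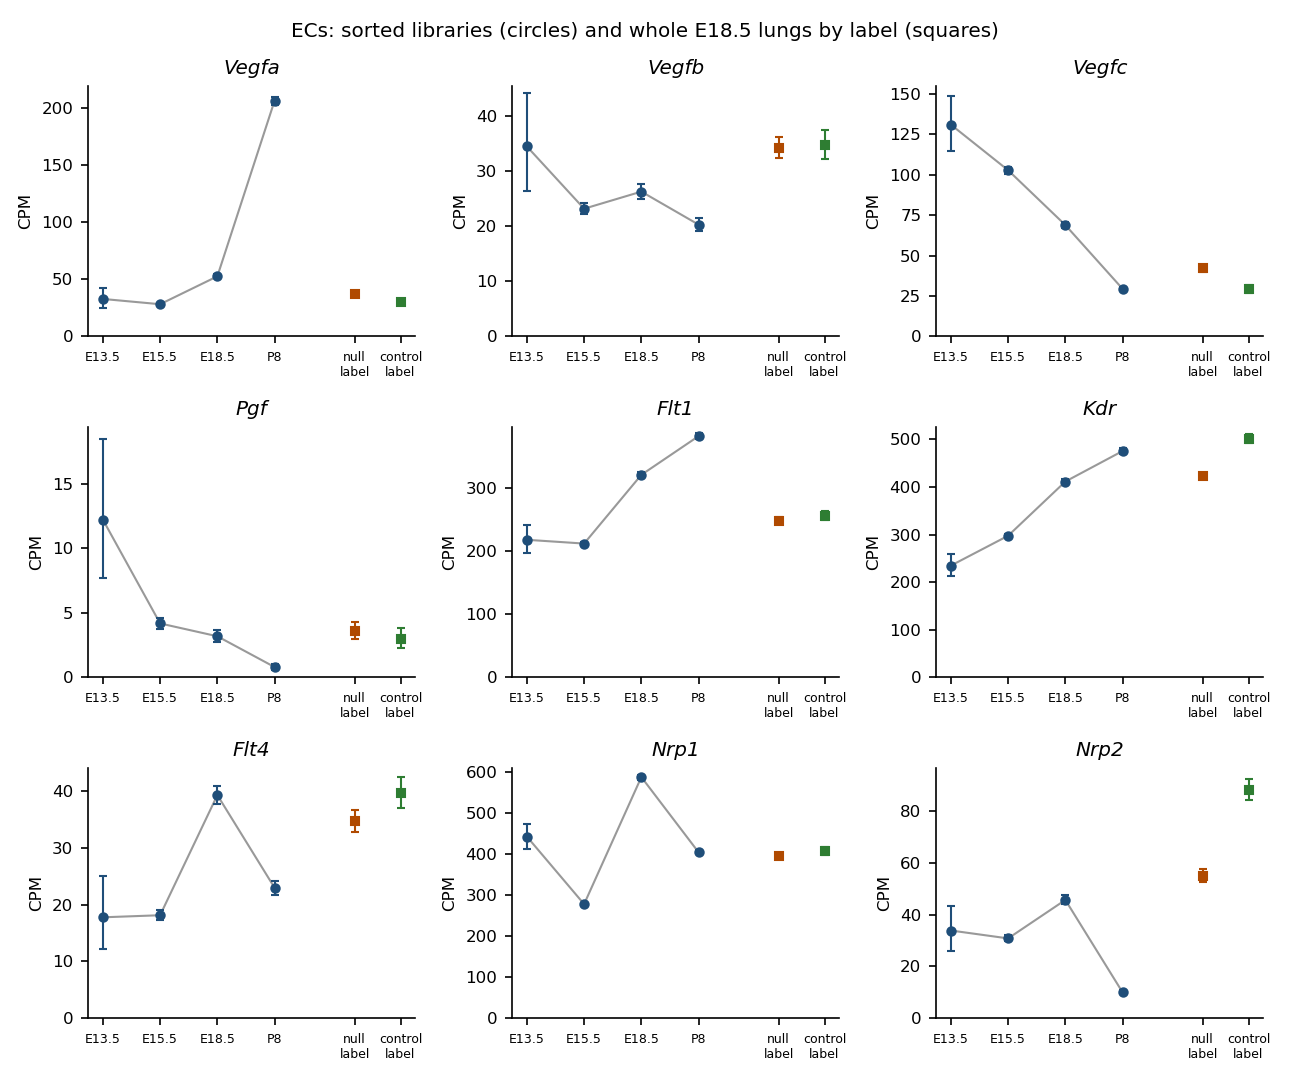
Level of each VEGF ligand and receptor gene in ECs in CPM (vertical axis, from 0) for the 4 sorted libraries by age (circles) and the whole E18.5 lungs by label (squares), 1 library each, with bars for the exact 95% Poisson interval. Vegfa is highest at P8 (206 CPM), Vegfc declines from 131 to 29.4 CPM, and Nrp2 is lowest at P8 (10.00 CPM).

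From E13.5 to E15.5, 1 of the 9 genes passed the fold, Nrp1, which was lower at a log2 ratio of -0.67 (interval -0.77 to -0.57), beside 18.9% of the 6243 genes tested. From E15.5 to E18.5, 4 were higher, Vegfa, Flt1, Flt4 and Nrp1, and none lower, beside 33.2% of 6534 genes past the fold and 22.2% that were higher. From E18.5 to P8, Vegfa was higher and Vegfc, Flt4 and Nrp2 were lower, 4 of 9 beside 18.5% of 6585 genes. Without the Prox1 ECs, Nrp2 also passed the fold in the first step, higher at 0.67 (interval 0.18 to 1.24), 2 of 9 beside 19.1% of genes. In the last step Flt4 no longer passed it, at -0.52 (interval -0.63 to -0.43), leaving 3 of 9 beside 18.5%. Over the whole span, P8 against E13.5, 3 were higher, Vegfa, Flt1 and Kdr, and 3 lower, Vegfb, Vegfc and Nrp2, beside 49.2% of 6903 genes. Of the 9 genes, 7 reached 20 CPM in the first comparison and 8 in each of the others, Pgf in none. The cells behind these ages also differed in type: ECs past the Gpihbp1 gate numbered 2630 at E15.5 and 6079 at P8, and ECs past the Car4 gate 10 and 1783. Past the Gja4 gate were 192 of 210 ECs at E13.5 and 7163 of 9453 at E15.5. The 7 dissociation genes such as Fos and Jun, which rise when tissue is digested, summed to 855, 1219.6, 5064 and 11346 CPM in ECs over the 4 ages. The 6 surfactant-cell (AT2) markers summed to 31.6, 25.8, 553 and 453 CPM, with 3 of them, Slc34a2, Sftpa1 and Lyz2, at 0 at E13.5. The part of cell mix, digestion and free epithelial RNA in the changes with age was not tested.

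In the same ECs, other genes of the pathway were counted on lists of modulators, receptor signalling, VEGF-responsive genes and targets of the hypoxia factor HIF. Some genes on them are also markers used here, among them Efnb2 (arterial), Plvap and Apln (capillary) and Lyve1 (lymphatic). Of all genes tested, 8.07% were higher and 10.9% lower past the fold from E13.5 to E15.5, 22.2% and 11.0% from E15.5 to E18.5, and 10.5% and 7.94% from E18.5 to P8, and the counts below are to be read beside these shares. Of the VEGF-responsive EC genes, from E18.5 to P8 17 of 20 genes were tested, of which 9 were higher and 2 lower past the fold, with a median log2 ratio of 0.77 beside 0.06 over all genes tested. Esm1, a tip cell gene, went from 14.4 to 84.6 CPM and Hlx, an endothelial transcription factor, from 73.8 to 253 CPM, while Nid2, a basement membrane protein, went from 67.2 to 13.8 CPM and Trp53i11 from 107 to 23.9 CPM. From E15.5 to E18.5, 16 of 20 genes were tested, of which 10 were higher and 0 lower past the fold, with a median log2 ratio of 0.70 beside 0.18 over all genes tested. Adamts1, a protease, went there from 68.1 to 207 CPM and Spry4, an inhibitor of receptor kinase signalling, from 17.4 to 53.2 CPM. From E13.5 to E15.5, 12 of 20 genes were tested, of which 6 were higher and 0 lower past the fold, with a median log2 ratio of 0.57 beside -0.07 over all genes tested.

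The list of HIF targets holds genes known to be induced when oxygen is low. From E18.5 to P8, 9 of 12 genes were tested, of which 0 were higher and 8 lower past the fold, with a median log2 ratio of -2.02 beside 0.06 over all genes tested. Egln3, a prolyl hydroxylase that limits HIF, went from 53.2 to 0.875 CPM and Slc2a1, the glucose transporter GLUT1, from 23.7 to 3.84 CPM. From E15.5 to E18.5, 9 of 12 genes were tested, of which 4 were higher and 1 lower past the fold, with a median log2 ratio of 0.36 beside 0.18 over all genes tested, with Ndrg1, a stress-induced gene, going from 25.6 to 124 CPM and Ankrd37 from 115 to 352 CPM, while Pgk1, a glycolytic enzyme, went from 284 to 184 CPM. Between the first 2 ages, 8 of 12 genes were tested, of which 2 were higher and 0 lower past the fold, with a median log2 ratio of 0.10 beside -0.07 over all genes tested. Of receptor signalling genes from E18.5 to P8, 22 of 31 genes were tested, of which 0 were higher and 0 lower past the fold, with a median log2 ratio of 0.05 beside 0.06 over all genes tested. From E15.5 to E18.5, 21 of 31 genes were tested, of which 2 were higher and 0 lower past the fold, with a median log2 ratio of 0.32 beside 0.18 over all genes tested, led by Hspb1, a heat-shock protein phosphorylated downstream of p38, from 117 to 350.0 CPM, and Pxn, a focal adhesion protein, from 32.4 to 65.6 CPM. Earlier, 21 of 31 genes were tested, of which 2 were higher and 1 lower past the fold, with a median log2 ratio of 0.14 beside -0.07 over all genes tested. Of the modulators from E15.5 to E18.5, 8 of 17 genes were tested, of which 5 were higher and 1 lower past the fold, with a median log2 ratio of 0.81 beside 0.18 over all genes tested. Ptprb, the phosphatase that opposes Kdr and Tie2 signalling, went from 247 to 733 CPM and Lyve1, the hyaluronan receptor, from 19.8 to 396 CPM. Of the modulators from E18.5 to P8, 8 of 17 genes were tested, of which 2 were higher and 2 lower past the fold, with a median log2 ratio of -0.11 beside 0.06 over all genes tested. Efnb2, an arterial ephrin, went there from 337 to 532 CPM and the perlecan gene Hspg2 from 128 to 34.2 CPM. From E13.5 to E15.5, 8 of 17 genes were tested, of which 1 was higher and 2 lower past the fold, with a median log2 ratio of -0.15 beside -0.07 over all genes tested.

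Among ECs that passed 1 of the 3 gates alone, Kdr was highest in the Car4 cells, Vegfa and Vegfc in the Gja4 cells, and Nrp2 in the Gpihbp1 cells. The gates overlap, with 4775 of 8259 ECs at P8 passing both Gja4 and Gpihbp1, so ECs that passed a single gate are given before the splits against all other ECs. Kdr at E18.5 read 189 CPM (183 to 195) in ECs of the Gja4 gate only, 522 CPM (508 to 535) in those of the Gpihbp1 gate only and 1226 CPM (1168 to 1285) in those of the Car4 gate only. At P8 the same 3 groups read 121 CPM (114 to 129), 431 CPM (413 to 449) and 1704 CPM (1631 to 1778). The order was the same at both ages, without overlap of intervals, while at E15.5 the Gja4-only and Gpihbp1-only ECs read 271 and 324 CPM. Kdr thus fell from E15.5 to P8 within Gja4-only ECs and was highest at E18.5 within Gpihbp1-only ECs, though the level over all ECs rose with age. Gja4-only ECs were 5657 of the 7163 Gja4 ECs at E15.5 and 1525 of the 6363 at P8. Gpihbp1-only ECs were 1120 of 2630 and 936 of 6079. The P8 levels are therefore not those of most ECs past either gate, and the groups compared over age differ in make-up.

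Vegfa ran the other way. It read 40.7 CPM (39.0 to 42.5) at E15.5, 84.2 CPM (80.5 to 88.1) at E18.5 and 261 CPM (251 to 272) at P8 in Gja4-only ECs, against 8.04, 21.8 and 180.4 CPM in Gpihbp1-only ECs. Car4-only ECs read 18.6 CPM (12.2 to 27.3) at E18.5 and 36.5 CPM (26.6 to 48.8) at P8. Within the P8 library, where the level over all ECs was 206 CPM, these Car4-only cells stayed low. They were 267 of the 852 Car4 ECs at E18.5 and 223 of the 1783 at P8, so the level is not that of most Car4 ECs. Vegfc read 152 CPM (149 to 156), 115 CPM (111 to 119.8) and 59.1 CPM (54.1 to 64.5) in Gja4-only ECs and 19.4, 28.2 and 21.3 CPM in Gpihbp1-only ECs. For both genes the intervals of Gja4-only and Gpihbp1-only ECs did not overlap at any age, and for Vegfc the gap was narrowest at P8. Intervals of Car4-only and Gpihbp1-only ECs overlapped at E18.5 for both genes and at P8 for Vegfc.

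Nrp1 was higher in Car4-only ECs, with 1098 CPM (1044 to 1154) at E18.5 and 948 CPM (895 to 1004) at P8, than in Gja4-only (563 and 320.0 CPM) or Gpihbp1-only ECs (518 and 350.1 CPM). At E15.5 the Gja4-only ECs were the higher, at 360.3 against 140.4 CPM. Nrp2 read 73.3 CPM (68.8 to 78.0), 73.1 CPM (68.2 to 78.3) and 22.3 CPM (18.4 to 26.9) in Gpihbp1-only ECs and 11.8, 21.7 and 2.87 CPM in Gja4-only ECs. Flt4 had the same order between these groups, with 30.0, 53.5 and 29.0 CPM against 12.05, 22.7 and 11.1 CPM. In Car4-only ECs, Nrp2 was low at 12.9 and 2.43 CPM, the latter at the floor of 3 counts, while Flt4 was at 55.2 and 49.4 CPM. Flt1 had a narrower range, between 249 and 358 CPM at E18.5 and between 329.8 and 515 CPM at P8. Vegfb at E15.5 was lower in Gja4-only (17.5 CPM) than in Gpihbp1-only ECs (35.2 CPM), and at E18.5 and P8 their intervals overlapped. Car4-only ECs had less, at 12.2 CPM (7.10 to 19.5) and 4.86 CPM (1.78 to 10.6).

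**Figure D2:**
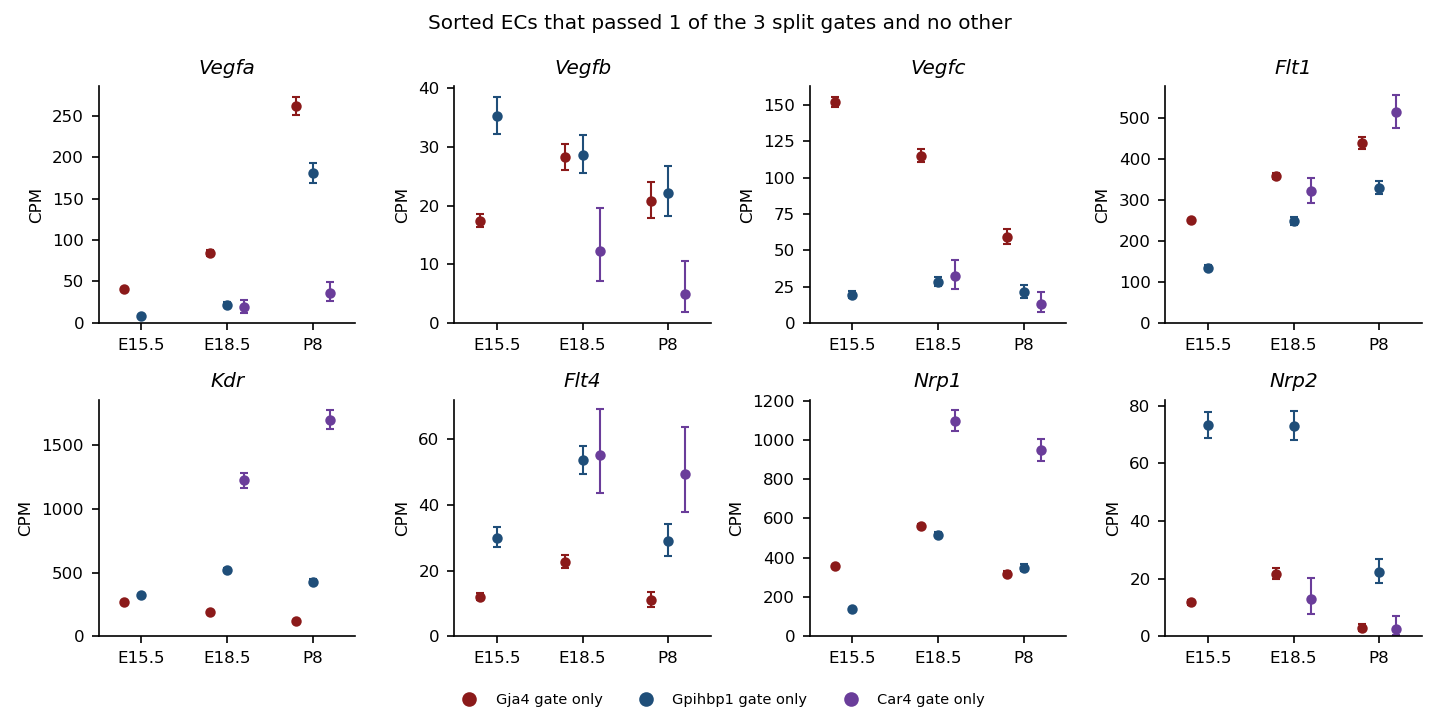
Level in CPM (vertical axes, from 0, different in each panel) of 8 genes at E15.5, E18.5 and P8 in sorted ECs that passed the Gja4, Gpihbp1 or Car4 gate alone, with exact 95% Poisson intervals; Car4-only ECs are absent at E15.5, where they were too few. Kdr reaches 1704 CPM in Car4-only ECs at P8 and 121 CPM in Gja4-only ECs, and Vegfc is highest in Gja4-only ECs at every age shown.

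Against all other ECs of the same library, the Gja4 and Gpihbp1 splits gave 1 gene and the Car4 split 3 genes past the fold in the same direction in every sorted library that could be used. For the Gja4 gate this was 1 of 9, Vegfc, with log2 ratios of 2.16 (interval 2.07 to 2.29) at E15.5, 1.36 (interval 1.25 to 1.49) at E18.5 and 0.63 (interval 0.43 to 0.86) at P8, beside 2.42% of the 5337 genes tested in all 3. For the Gpihbp1 gate it was again Vegfc, lower by ratios of -1.46, -1.38 and -0.97, beside 4.84% of 5369 genes. For the Car4 gate, where E18.5 and P8 alone had enough cells, Kdr was higher (1.31 and 1.51) and Vegfa (-1.28 and -0.80) and Vegfc (-1.07 and -0.92) were lower, 3 of 9 beside 6.63% of 5931 genes. The whole lungs gave Kdr ratios for Car4 ECs of 0.92 in the library labelled null and 0.84 in that labelled control, the latter from 50 cells. The Gja4 count was 0 with a pseudocount of 5, and the Gpihbp1 count 0 with gates on thinned cells. The splits share their other ECs, so these 3 sets of ratios are not separate measurements.

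ECs with Prox1, the transcription factor of lymphatic identity, were high in Nrp2 and Flt4, which bind Vegfc, and low in Flt1 and Nrp1. At sorted E18.5, 80 ECs had at least 2 UMIs of Prox1, and no other library had 50. Their 6 lymphatic markers, of which Prox1 is itself 1, summed to 12075 CPM, and 5 of 6 immune and 5 of 7 epithelial markers were at 0. In them Nrp2 read 1113 CPM (1043 to 1187) against 30.4 CPM in the other ECs, and Flt4 501 CPM (454 to 551) against 32.7 CPM. Pgf, a ligand of Flt1, read 64.9 CPM (48.9 to 84.5) against 2.29 CPM, and Vegfb 70.8 CPM (54.0 to 91.2) against 25.6 CPM. Kdr, at 556 CPM (507 to 609) against 409 CPM, did not pass the fold. The remaining genes were lower there. Flt1 read 48.4 CPM (34.7 to 65.7) against 324 CPM and Nrp1 100.3 CPM (80.1 to 124) against 595 CPM. Vegfc, the ligand of Flt4, read 7.08 CPM (2.60 to 15.4) against 69.7 CPM, and Vegfa 23.6 CPM (14.4 to 36.5) against 53.0 CPM. In all, 4 of 9 genes were higher and 4 lower, beside 34.7% of 6985 genes past the fold.

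**Figure D3:**
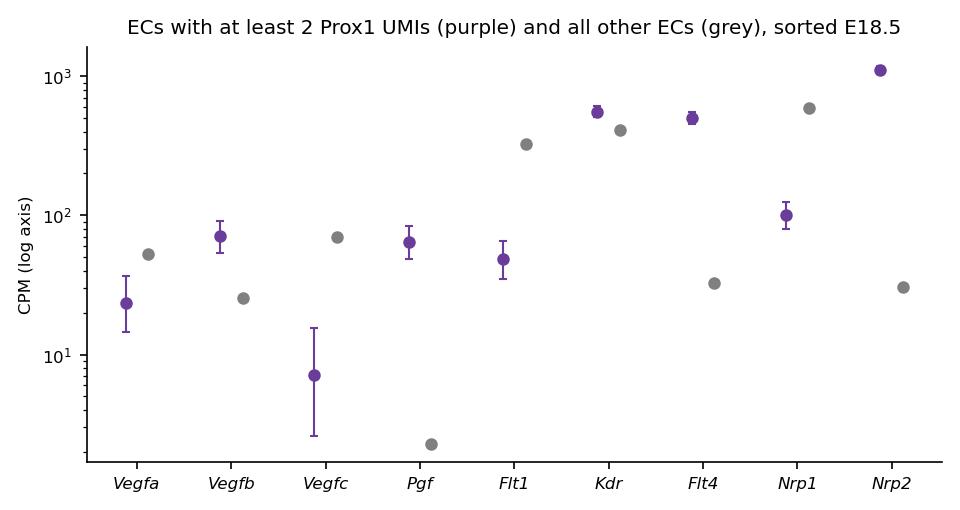
Level in CPM on a log axis of the 9 genes in the 80 ECs with at least 2 Prox1 UMIs (purple, with exact 95% Poisson intervals) and in all other ECs (grey) of the sorted E18.5 library. Nrp2, Flt4 and Pgf lie higher in the Prox1 ECs, at 1113, 501 and 64.9 CPM, and Flt1 and Nrp1 lower, at 48.4 and 100.3 CPM.

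ECs with at least 2 UMIs of Mki67 and Top2a together, genes of dividing cells, carried less Vegfa in all 6 libraries, more Vegfb in all except E13.5, and Kdr within the fold. At E15.5, 2258 such ECs read 15.02 CPM of Vegfa against 34.8 in the others, 51.2 against 129 CPM of Vegfc and 294 against 299 CPM of Kdr. Vegfa was lower past the fold in all 6 libraries, with log2 ratios from -1.18 at E15.5 to -0.70 at P8, and Vegfc in all except P8, where the ratio was 0.02 (interval -0.20 to 0.24). Vegfb was higher past the fold at 0.83, 1.05 and 0.90 at the last 3 ages and 0.60 and 0.74 in the whole lungs labelled null and control, with 0.38 (interval -0.38 to 1.15) at E13.5, within the fold. Nrp2 was higher past the fold at E13.5, E15.5 and E18.5. At E13.5 this rested on 1 cell: the 59 dividing ECs held 42 Nrp2 UMIs, and the 58 without the single Prox1 EC held 12, or 16.4 against 18.1 CPM in the others. Without Prox1 ECs, dividing and other ECs read 39.4 and 22.2 CPM at E15.5 and 53.6 and 27.8 CPM at E18.5, both still past the fold. Kdr ratios lay between -0.15 and 0.08, none past the fold. In all, 5 of 9 genes were past the fold at E13.5, beside 24.9% of all genes (3 without the Prox1 EC, when Nrp1 and Nrp2 no longer passed, beside 25.9%), 6 at E15.5 beside 16.1%, 4 at E18.5 beside 17.8% and 2 at P8 beside 13.6%. In the whole lungs labelled null and control 3 genes each were past it, beside 14.6% and 15.2%. Dividing ECs held a median of 12908 UMIs at E15.5 against 7816 in the others, and at E15.5 their arterial markers summed to 1078 CPM against 1885 CPM in all ECs.

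In the whole E18.5 lungs, the receptor and co-receptor genes had their highest levels in ECs and the ligands in different classes. Kdr, Flt1, Flt4, Nrp1, Nrp2 and Vegfc were highest in ECs, Vegfa in epithelial cells, and Vegfb and Pgf in mesenchymal cells, in both libraries. The 6 of 9 highest in ECs compare with 24.8% of the 8226 genes that reached 20 CPM in a class of both libraries. Kdr read 423 CPM (417 to 430.4) in ECs of the library labelled null and 501 CPM (491 to 511) in those labelled control, against 46.6 and 45.4 CPM in epithelial, 31.5 and 29.8 CPM in mesenchymal and 47.8 and 51.0 CPM in immune cells. Among cells of a single gate, mesenchymal cells read 3.07 and 2.32 CPM, immune cells 3.77 and 2.46 CPM, and epithelial cells 32.2 and 33.3 CPM. The share of cells with a Kdr UMI, after thinning each cell to 2000 UMIs, was 5.198% (3.25 to 7.84) and 5.67% (3.91 to 7.92) in those epithelial cells, against 0.726% (0.497 to 1.02) and 0.592% (0.371 to 0.894) in mesenchymal cells of a single gate. Unthinned the shares were 25.4%, 20.1%, 2.67% and 1.64%, at median depths of 17389, 13265, 8309 and 7065 UMIs. The 8 endothelial markers summed to 58.9 and 42.2 CPM in the same epithelial cells, and to 187 and 204 CPM in the mesenchymal cells.

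Flt1 read 248 and 256 CPM in ECs and was next highest in immune cells, at 47.0 and 61.3 CPM. In cells of the immune gate alone it was still 32.4 CPM (28.9 to 36.3) and 47.9 CPM (43.3 to 53.0), while mesenchymal cells of a single gate had 3.29 and 1.54 CPM and epithelial cells 0.384 and 0.645 CPM. Endothelial markers in these immune cells summed to 65.9 and 29.8 CPM beside 7531 and 7259.6 CPM in ECs. Flt4 read 34.7 and 39.6 CPM in ECs and at most 3.80 CPM in any other class. Nrp1 read 397 and 408 CPM in ECs, 158 and 117 CPM in mesenchymal cells, and less in immune and epithelial cells, where cells of a single gate had 38.3 and 42.4 CPM (immune) and 38.7 and 38.3 CPM (epithelial). Nrp2 was read in every class and was 1.33 and 1.58 times the next class in ECs, with 55.0 and 88.1 CPM in ECs and 34.6 to 55.8 CPM in the other classes over both libraries.

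**Figure D4:**
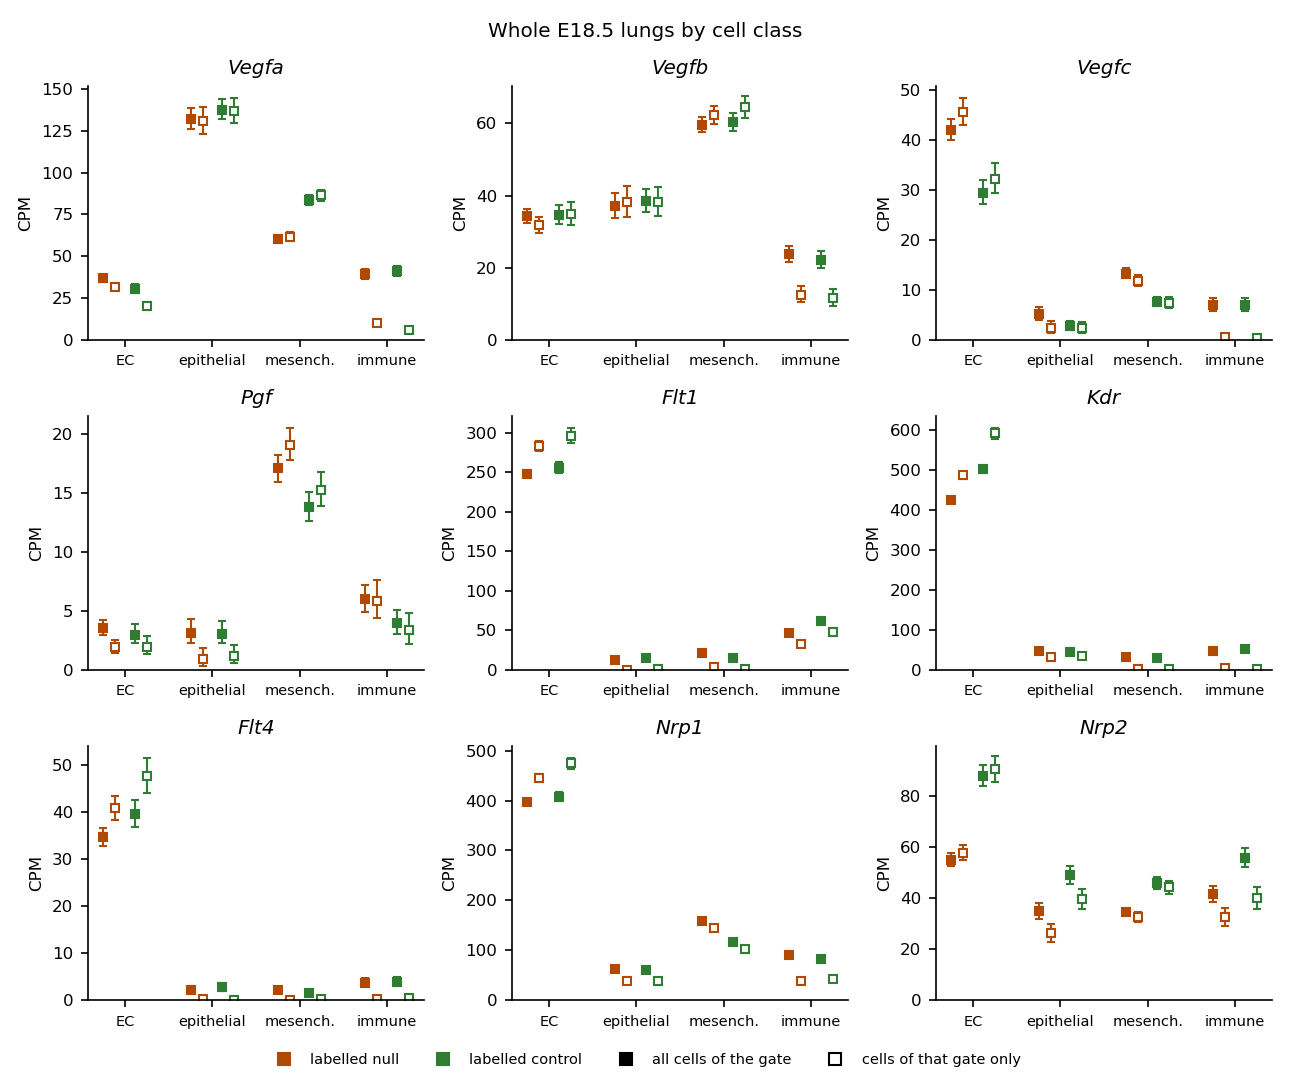
Level in CPM (vertical axes, from 0, different in each panel) of each gene in ECs, epithelial, mesenchymal and immune cells of the whole E18.5 lungs labelled null (orange) and control (green), for all cells of a gate (filled) and for cells of that gate only (open), with exact 95% Poisson intervals. Kdr stands at 423 and 501 CPM in ECs, and Vegfa is highest in epithelial cells at 132 and 138 CPM.

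Vegfa read 132 CPM (126 to 139) and 138 CPM (132 to 144) in epithelial cells, 60.2 and 83.8 CPM in mesenchymal cells and 36.7 and 30.5 CPM in ECs. Immune cells read 39.1 and 41.0 CPM, and 10.2 and 5.67 CPM in cells of that gate alone. Epithelial cells with at least 2 UMIs of Ager, a gene of the flat alveolar type 1 cells, read 182 CPM (173 to 191) and 179.6 CPM (172 to 188), and those without it 30.7 and 36.6 CPM. Epithelial cells past the same limit for Lamp3, a gene of lamellar bodies in type 2 cells, read 120.3 and 93.0 CPM. These splits overlap, with 151 and 232 cells in both, which read 124 and 95.6 CPM. Cells past the Ager limit without Lamp3 read 222 and 252 CPM, and cells past neither limit 31.1 and 32.2 CPM. Fewer than 50 cells had Lamp3 without Ager in each library, so a level for them is not given. Nrp2 was also higher in Ager cells, at 42.1 and 58.8 CPM against 20.0 and 25.2 CPM in the other epithelial cells. Vegfa and Nrp2, 2 of 9 genes, were higher there past the fold beside 6.94% and 7.44% of genes in the libraries labelled null and control. Kdr in both, and Flt1 in that labelled null, were lower past the fold, 2 and 1 of 9 beside 27.8% and 23.5% of genes, with Kdr at 33.4 and 32.1 against 73.6 and 77.7 CPM. In epithelial cells of a single gate, Vegfa read 174 and 179 CPM in Ager cells against 29.7 and 32.9 CPM in the rest, Nrp2 33.9 and 51.0 against 8.07 and 10.6 CPM, Nrp1 50.5 and 47.5 against 11.5 and 15.1 CPM, and Kdr 28.3 and 21.8 against 41.2 and 62.3 CPM. Vegfa, Nrp1 and Nrp2, 3 of 9, were higher past the fold in both libraries there, beside 9.93% and 10.1% of genes. Kdr was lower past it in the library labelled control alone, 0 and 1 of 9 beside 31.6% and 28.7%, and Flt1 was under 20 CPM in both. In ECs of the single gate, Vegfa read 31.7 and 20.1 CPM, and the 6 AT2 markers summed to 119 and 173 CPM against 869 and 2280.2 CPM in all ECs.

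Vegfb and Pgf had their highest class level in the mesenchyme. Vegfb read 59.6 and 60.4 CPM in mesenchymal cells and 22.1 to 38.4 CPM in the other classes. In immune cells of a single gate it was 12.5 and 11.6 CPM, and with SoupX-adjusted values, in which free RNA is subtracted, the labelled control gave 13.4 CPM in immune and 24.6 CPM in epithelial cells. Pgf read 17.0 and 13.8 CPM, and at most 5.97 CPM elsewhere. Within the mesenchyme, cells with at least 2 UMIs of Myh11, the smooth muscle myosin, had 29.8 CPM (27.4 to 32.4) and 27.5 CPM (24.6 to 30.6) of Pgf against 9.76 and 7.36 CPM in the rest. They had less Vegfa, at 39.2 and 56.6 against 72.1 and 96.7 CPM, and less Nrp2, at 17.7 and 22.8 against 44.3 and 56.7 CPM. These 3 genes were past the fold in both libraries, beside 17.8% and 12.9% of genes. Among mesenchymal cells of a single gate, Pgf was at 35.3 and 31.6 CPM in Myh11 cells against 10.5 and 8.16 CPM. Cells with at least 2 UMIs of Cspg4, a pericyte proteoglycan, had Pgf at 27.1 CPM (22.5 to 32.2) and 45.1 CPM (37.7 to 53.6). In the whole lungs, Vegfc in the other classes was at most 13.2 CPM.

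Mesenchymal cells were also present in the sorted libraries. At E13.5, 11303 cells read 94.1 CPM of Vegfb, 35.2 CPM of Pgf, 153 CPM of Nrp1 and 2.93 CPM of Kdr. At E15.5 the mesenchymal gate gave 69.4, 11.6, 159.8 and 56.7 CPM of these genes, and 78.5, 13.02, 129 and 5.77 CPM in cells of that gate alone. The E18.5 sorted cells of that gate alone had 54.7, 21.4, 235 and 2.68 CPM. At P8 the 68 cells of that gate alone had 57.6 CPM (39.2 to 81.8) of Vegfb and 35.3 CPM (21.3 to 55.2) of Pgf, from 31 and 19 UMIs. Over these ages Vegfb was highest at E13.5 and Pgf lowest at E15.5. Kdr was low in the E15.5 and E18.5 cells of a single gate. In the E13.5 library Cspg4 cells had Flt1 at 87.3 CPM (78.9 to 96.2) against 22.1 CPM in the other mesenchymal cells, while Kdr there was 1.52 CPM. Flt1 alone of the 9 was higher past the fold in these 376 cells, and Vegfa, Vegfc and Nrp2 were lower, beside 14.7% of 6209 genes past the fold. The endothelial markers in mesenchymal cells summed to 106 CPM at E13.5.

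The whole-lung libraries were labelled by Cxcl12 genotype, and Cxcl12 itself went against the labels in all 4 classes. Over all kept cells it read 191 CPM in the library labelled null and 1.27 CPM in that labelled control. Every direction below is that of the labels and turns if the labels are swapped. In ECs, 1 of 9 genes passed the fold: Nrp2 read 55.0 CPM (52.6 to 57.5) in the library labelled null and 88.1 CPM (84.0 to 92.3) in that labelled control, a log2 ratio of -0.67 (interval -0.77 to -0.58), beside 2.72% of 6469 genes. Without Prox1 ECs the ratio was -0.89. No member passed it in epithelial, mesenchymal or immune cells, beside 2.12%, 3.07% and 2.65% of genes. In these classes 5, 6 and 6 of the 9 reached the 20 CPM needed for a call. Nrp2 had the same sign in these classes, at -0.48 (interval -0.66 to -0.32) in epithelial, -0.40 (interval -0.50 to -0.31) in mesenchymal and -0.42 (interval -0.57 to -0.29) in immune cells. In Gja4 ECs the Nrp2 ratio was -0.39 (interval -0.59 to -0.20) and in Gpihbp1 ECs -0.56 (interval -0.67 to -0.46), neither past the fold, and no member passed it in either split, beside 2.09% and 2.31% of genes. In the smaller group of Cspg4 mesenchymal cells, 341 and 234, 4 of 9 genes passed it, beside 6.95% of genes. There Flt1 was at 0.82 (interval 0.28 to 1.45), and Vegfa at -0.69 (interval -0.98 to -0.41), Pgf at -0.73 (interval -1.10 to -0.37) and Nrp2 at -0.95 (interval -1.40 to -0.54), from 35 to 210 UMIs a library. In Cspg4 cells of a single gate Flt1 was at 9.40 and 3.01 CPM, under the 20 CPM needed for a call, and Vegfa, Pgf and Nrp2 passed the fold, 3 of 9 beside 8.86% of genes.

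The other receptors were within the fold in ECs, with Kdr at -0.24 (interval -0.28 to -0.21), Flt4 at -0.19 (interval -0.32 to -0.06), Flt1 at -0.04 (interval -0.09 to 0.01) and Nrp1 at -0.04 (interval -0.08 to 0.00). Of the ligands, Vegfc in ECs was at 0.51 (interval 0.38 to 0.66) and Vegfa at 0.26 (interval 0.12 to 0.41), both within the fold. Vegfa was at -0.48 (interval -0.55 to -0.41) in mesenchymal cells and -0.06 (interval -0.15 to 0.03) in epithelial cells. The ECs behind these ratios differed in make-up, since 1472 of 3019 in the library labelled null and 564 of 1923 in that labelled control passed the Gja4 gate, and the 7 arterial markers, Cxcl12 among them, summed to 1538 and 749 CPM. Within Gja4 ECs the Vegfc ratio was 0.47 (interval 0.27 to 0.68), and within Gpihbp1 ECs 0.51 (interval 0.32 to 0.72). In ECs 1.1% of all genes tested were higher and 1.62% lower past the fold. Of the VEGF-responsive EC genes in ECs, 15 of 20 genes were tested, of which 0 were higher and 0 lower past the fold, with a median log2 ratio of 0.07 beside 0.00 over all genes tested. Of the HIF targets, 9 of 12 genes were tested, of which 1 was higher and 0 lower past the fold, with a median log2 ratio of 0.22 beside 0.00 over all genes tested, with Ankrd37 at 312 against 196 CPM.

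These ratios changed with values adjusted for free RNA. The submitters' SoupX-adjusted values keep 81.5% of the UMIs of the library labelled null and 60.04% of that labelled control. They also lack a gene that the paper removed as a likely ribosomal RNA, so the lost UMIs are not free RNA alone. The totals behind the adjusted CPM are smaller for both reasons. With these values 4 of 9 genes passed the fold in ECs, beside 11.6% of genes. Vegfa and Vegfb became higher in the library labelled null, at 0.76 and 0.66, and Kdr and Nrp2 lower, at -0.64 and -0.95. In immune cells 2 of 9 passed, Flt1 at -0.67 and Vegfb at 0.59, beside 16.0% of genes. Nrp2 kept its sign in all 4 classes. Of the class levels, 8 moved by over 1.5 times with these values. In ECs labelled control, Kdr went from 501 to 757 CPM, Flt1 from 256 to 385 CPM, Vegfa from 30.5 to 13.3 CPM and Vegfb from 34.7 to 20.5 CPM. Vegfa also went from 36.7 to 22.9 CPM in ECs labelled null and from 41.0 to 26.1 CPM in immune cells labelled control, and the remaining 2 are the Vegfb levels given above. With cells of a single gate, 2 genes passed in ECs, Nrp2 at -0.64 (interval -0.76 to -0.54) and Vegfa at 0.65 (interval 0.46 to 0.86), beside 1.96% of genes. Nrp2 alone passed in such epithelial cells, at -0.59 (interval -0.85 to -0.34), beside 2.65% of genes. The part of free RNA in the differences between the libraries was not tested further.

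**Figure D5:**
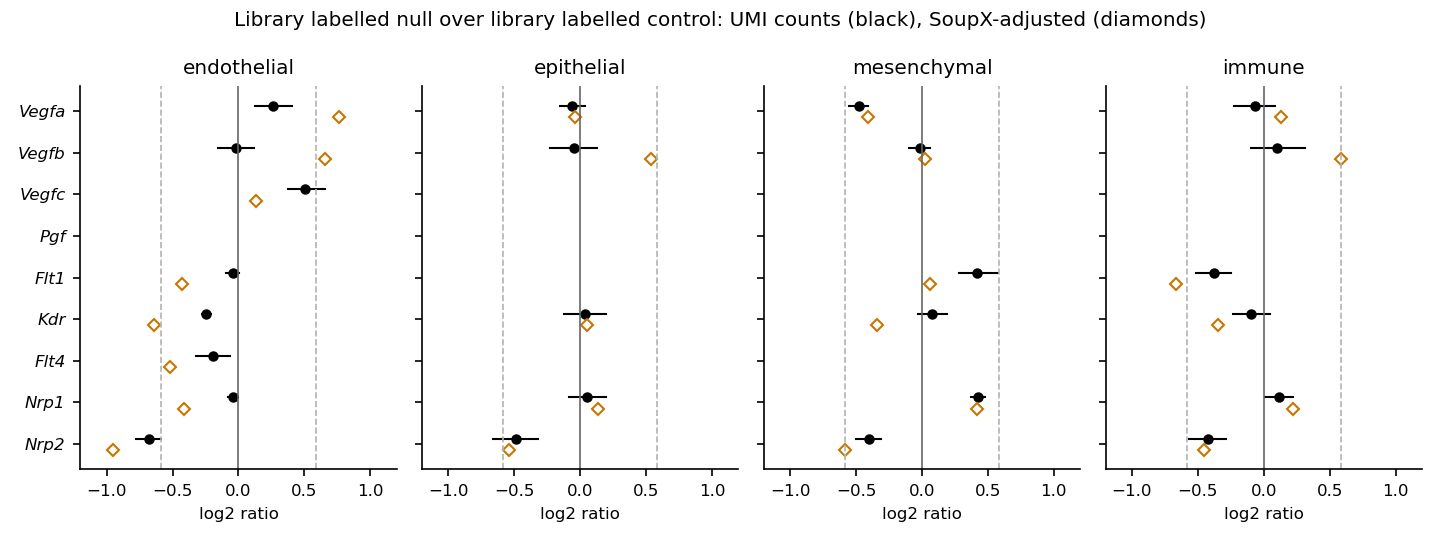
Log2 ratio (horizontal axes) of the library labelled null over that labelled control for the genes with at least 20 CPM in 1 of them, in 4 cell classes, from UMI counts (black, lines for the exact 95% interval) and from SoupX-adjusted values (open diamonds); dashed lines mark the 1.5-fold limit. In ECs, Nrp2 alone lies past the limit by UMI counts (-0.67), and 4 genes do after adjustment.

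ECs of the sorted and whole E18.5 lungs could also be set side by side, since the sort takes Cxcl12 reporter cells. Vegfc read 68.8 CPM in sorted ECs against 42.0 and 29.4 CPM in those of the libraries labelled null and control, and Nrp1 589 against 397 and 408 CPM. Nrp2 read 45.6 against 55.0 and 88.1 CPM. Over the library labelled control, Vegfa and Vegfc were higher and Nrp2 lower past the fold, 3 of 9 beside 14.2% of 6658 genes, and over the library labelled null Vegfc alone was higher, beside 10.1% of 6519 genes. Sort, genotype and library cannot be told apart in these values.

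The genes with the most similar pattern were sought among 6429 genes with at least 50 CPM in 1 group, by Pearson correlation of log2(CPM + 1) over 28 groups that share no cells. The groups come from 6 libraries and share their depth and free RNA, so the values are descriptive. Kdr was nearest to Ica1 (r = 0.982), Afap1l1 (0.969) and N4bp3 (0.965), and Flt4 to the endothelial sialomucin gene Emcn (0.985), Ppp1r16b (0.975) and the guidance receptor gene Robo4 (0.973). Flt1 was nearest to Gnb1 (0.960), Dpagt1 (0.953) and Clic1 (0.945), and Nrp1 to Hspa12b (0.959), Rdx (0.947) and the adenosine receptor gene Adora2a (0.932). Nrp2 had no close neighbour, with Tbc1d16 first at 0.752, then Phip (0.634) and Hmgn5 (0.632). Among the ligands, Vegfa was nearest to Ephx1 (0.885), Ndst1 (0.853) and the laminin gene Lamb2 (0.853), Vegfb to Zcchc3 (0.894), H2afv (0.865) and Snhg18 (0.863), Vegfc to Crispld1 (0.895), Thsd7a (0.889) and C530008M17Rik (0.884), and Pgf to Oaf (0.913), the versican gene Vcan (0.902) and Lgals1 (0.887).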

How the data were processed

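Cells of mouse lung were profiled in 6 droplet libraries, 4 sorted by reporter and 2 of whole lung, with 1 library per condition. Per the file headers, the matrices of UMI counts were made by the authors with CellRanger 3.0.2 or 3.1.0, and the submitters' processing notes name the mm10 build, Cell Ranger 3.1 and Seurat 3.2.2. For the whole lungs the deposited files also hold expected counts adjusted for free RNA with SoupX, used here for the limits on cells and as an alternative for levels. These counts also lack a gene that the authors removed as a likely ribosomal RNA. No column was left unmapped (0).

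Cells with at least 700 genes and 0.5 to 10% mitochondrial UMIs were kept, which in the whole lungs was read from the SoupX values. Gates were set on UMIs, counts were summed over the cells of a gate, and levels, exact 95% intervals and 1.5-fold calls were computed as described in the report, with a floor of 3 counts. Shares of cells were taken after thinning to 2000 UMIs (seed 1). No differential test was run because each condition has 1 library. Precision is set by the summed UMIs of each group, which over all ECs of a library ran from 1802025 at E13.5 to 95409670 at E15.5. Smaller groups had fewer, such as 537761 in the P8 mesenchymal cells of a single gate and 847121 in the Prox1 ECs of sorted E18.5. The calling step was tested on simulated data.

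The text names all 9 members, the gate genes and Cxcl12, the 3 genes most alike in pattern to each member, and from each pathway list only genes among the 2 with the largest change in each direction past the fold. The members and lists were chosen with earlier results of these data known. Alternatives tried were cells of 1 class only, per-cell means, no limits on cells, thinned gates, an EC gate of 4 UMIs, a pseudocount of 5, centring on the median, a fold of 2, no CPM minimum and SoupX values. Chosen after seeing the data were ECs without Prox1 cells, finer splits of cells of a single gate and leaving out shared barcodes. Python 3.11.15, numpy 2.4.6, scipy 1.17.1, pandas 2.3.3 and matplotlib 3.10.9 were used.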

Additional observations from a re-analysis of the deposited data

How the results depend on the processing

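Of the 243 single values compared, none past the fold changed direction under the alternatives run on them. Nrp2 in dividing ECs at E13.5, which lies outside these values, did change direction. It was higher past the fold in all dividing ECs and slightly lower, within the fold, without the Prox1 EC. The count of genes highest in ECs (6) and that past the fold from E18.5 to P8 (4) stayed within 1.5 times under all alternatives run on them. From E13.5 to E15.5 the count went from 1 to 2 with gates on thinned cells, no CPM minimum or ECs without Prox1 and to 0 at a fold of 2, and from E15.5 to E18.5 from 4 to 2 at a fold of 2. Between the libraries labelled null and control, the count in ECs went from 1 to 2 with cells of 1 class or per-cell means, to 4 with SoupX values and to 0 at a fold of 2. In epithelial cells it went from 0 to 1 with cells of 1 class, thinned gates or no CPM minimum, in mesenchymal cells from 0 to 2 with thinned gates and 1 with no minimum, and in immune cells from 0 to 2 with SoupX values. For the splits, the Car4 count went from 3 to 5 with thinned gates and 1 at a fold of 2. The Gja4 count went from 1 to 2 with cells of 1 class, per-cell means, an EC gate of 4 or no minimum, and to 0 with a pseudocount of 5 or a fold of 2. The Gpihbp1 count went from 1 to 0 with thinned gates or a fold of 2 and to 2 with no minimum. The cause of these moves was not tested beyond what the fold and the minimum set by construction. For SoupX values, cells of 1 class between the labelled libraries, and ECs without Prox1, the share of all genes is given above. It was not taken under the other alternatives, so those counts are not read as results about the members. Of 243 single values, 97 moved beyond their counting interval with cells of 1 class, 113 with per-cell means and 142 with thinned gates, and of the whole-lung values 73 moved and 71 did not with SoupX values. Leaving out shared barcodes moved 1; this and ECs without Prox1 were chosen after seeing the data. No paired analysis was possible because each condition has 1 library. The main limits are the 1 library per condition, the 210 ECs at E13.5, and labels that Cxcl12 contradicts.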
